A study of Sus scrofa with 4 samples.

Results

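The stretches of pig chromosomes in which ATAC-seq called no open chromatin in fetal fibroblasts were described here. Chromosomes 1 to 18 (build Sscrofa11.1) were cut into fixed bins of 200 kb from position 0 up to the last peak of each chromosome. A bin is called peak-free below when no peak of any of the 4 libraries overlapped it by at least 1 bp. Of 11336 bins, 857 were peak-free (7.56%), which is 171.4 Mb of 2267.2 Mb. These bins were chosen by the called peaks themselves, so their emptiness is a description and carries no test.

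Chromatin was opened with the Tn5 transposase in porcine fetal fibroblasts (PFFs) listed as skin cells, and all cells were serum-starved. The control libraries (control 1 and control 4) came from cells labelled WT in genotype and carrying pTK-642. The BRG1 libraries (BRG1 1 and BRG1 4) came from cells labelled BRG1-overexpressed and carrying pTK-642-BRG1. Each group had 2 libraries. Whether they were grown as separate cultures is not stated in the labels, so a p-value here reflects only library-to-library spread, part or all of it possibly technical. The series belongs to a study of BRG1 in pig somatic cell nuclear transfer, where such fibroblasts serve as nucleus donors.

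In a differentiated cell much of the genome is packed in closed chromatin. Such stretches are often poor in genes, replicate late and lie near the nuclear lamina, and they tend to hold genes of other lineages such as sensory receptors and adhesion proteins of neurons. BRG1 is the ATPase of the BAF remodelling complex, which moves and evicts nucleosomes and can expose DNA to other factors. ATAC-seq reports where the transposase finds DNA exposed above the local background. A bin without a peak is one where no such site was called at the depth of these libraries.

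The autosomal peak lists held 102829 (control 1), 101377 (control 4), 92315 (BRG1 1) and 87057 intervals (BRG1 4), and absolute read depth is unknown. Identical intervals made up 0.202% or less of each pair of lists. Fibroblast identity was checked at gene ends, meaning within 1 kb of either end of a gene model. Every library had a gene-end peak at 14 of 16 fibroblast markers, and DCN was the marker without one in any. The same held for 1 of 5 matched keratinocyte, 1 of 5 endothelial, 1 of 5 melanocyte and glia, 3 of 5 muscle, 2 of 5 immune and 2 of 4 adipocyte markers. The base for these counts is 12898 of 18722 coding genes (68.9%). The fibroblast share lay above this base and the share of each other cell type below it. The marker lists are short and this difference was not tested. The part of other cell types in the peak lists was not tested. No marker of any of the 7 cell types on the list lay wholly inside peak-free bins. Only 0.159% of named coding genes did, so this absence is near the background and does not bear on cell identity.

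Peak-free bins clustered along the chromosomes. The 857 bins formed 502 runs of touching bins, of which 326 were single bins and 176 held 2 or more. The longer runs held 531 of the bins (62.0%). Of the peak-free bins, 41.4% were followed by another one, beside the 7.56% that peak-free bins make up of all bins. Runs of at least 1 Mb (5 bins) numbered 22 and held 148 bins. The peak-free bins lay somewhat away from chromosome ends, with 14.9% in the outer 10% at either chromosome end against 20.0% of all bins.

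Chromosomes differed widely in how much of them was peak-free. Chromosome 11 had the highest share, with 63 of 396 bins (15.9%), followed by chromosome 16 with 45 of 400 (11.3%) and chromosome 10 with 35 of 347 (10.1%). Chromosome 7 had the lowest share, 25 of 610 bins (4.10%), then chromosome 4 (4.58%), chromosome 5 (4.59%) and chromosome 12 (4.87%). Chromosome 11 had 4.08 protein-coding gene models per Mb, the lowest of the 18 chromosomes, and chromosome 12 had 18.2, the highest. Across the 18 chromosomes the peak-free share and gene density had a Pearson r of −0.604, given as a description, since the points share the same 4 libraries and differ in length and base composition.

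**Figure D1:**
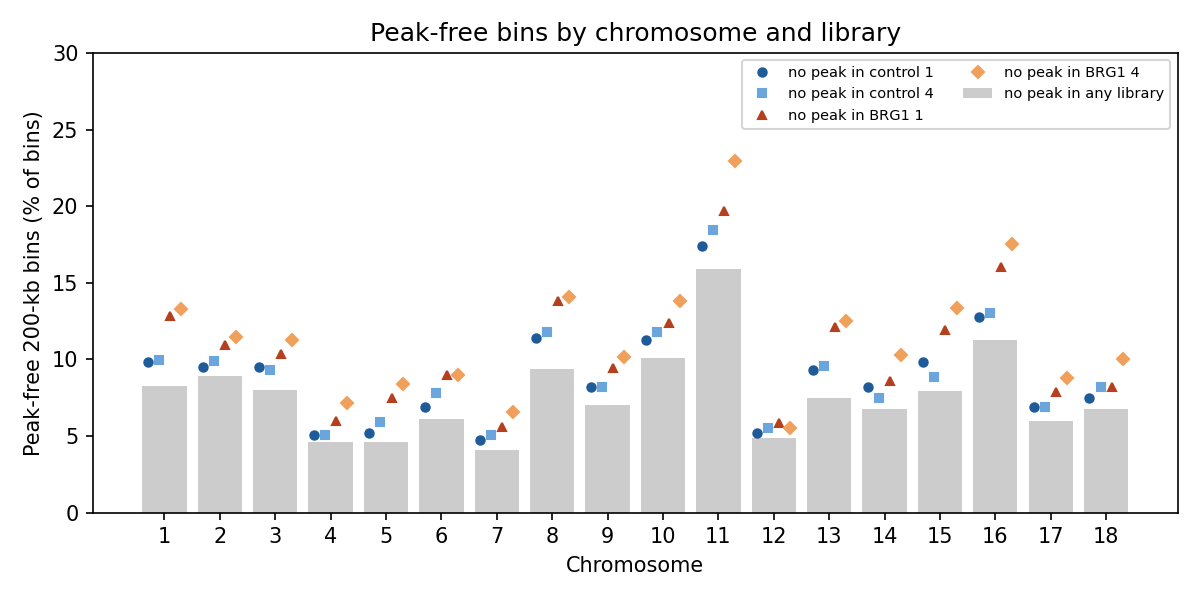
Share of 200-kb bins without a peak (y axis, percent of the bins of a chromosome) on chromosomes 1 to 18 (x axis). Grey bars are bins with no peak in any library, and symbols are bins with no peak in 1 named library; the bar of chromosome 11 reaches 15.9% and that of chromosome 7 reaches 4.10%.

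The longest run lay on chromosome 2 from 52600001 to 55200000 and was 2.6 Mb long. It held 53 protein-coding models and 26 pseudogenes, and every coding model carried only a LOC symbol, the placeholder that RefSeq gives to genes without an approved name. The models were short, with a median length of 948 bp, and 50 of the 53 were under 1200 bp. Counted from peak to peak, the stretch without a peak ran from 52412171 to 55399008, or 2.99 Mb.

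The next run, of 1.8 Mb, lay on the same chromosome from 62800001 to 64600000 and held 39 coding models, also all LOC, and 17 pseudogenes. ZNF333, a zinc finger gene, crossed its edge. Another coding cluster on chromosome 2, from 56000001 to 56800000, held 18 coding models, of which GCSAML was the 1 with a name. Chromosome 2 held 156 of the 339 coding models that lay wholly inside peak-free runs, and chromosome 9 held 55.

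Of the other 8 runs among the 10 longest, 5 held no coding model, and the run on chromosome 6 held only a part of 1. On chromosome 10 a run from 3400001 to 5200000 held 3 lncRNA models and 2 pseudogenes and no coding model. Of the pair of 1.6-Mb runs on chromosome 11, that from 34400001 to 36000000 held 3 pseudogenes, and that from 53200001 to 54800000 held 1 lncRNA besides transcribed pseudogenes. The run on chromosome 15 from 40000001 to 41600000 held 3 lncRNA models, and the run of 1.2 Mb on chromosome 1 from 156600001 to 157800000 held 1.

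The remaining runs among the 10 longest each involved 1 named coding gene. The run on chromosome 3 from 19800001 to 21400000 (1.6 Mb) surrounded the whole of HS3ST4, which encodes a sulfotransferase that modifies heparan sulfate. The run on chromosome 12 from 28800001 to 30400000 (1.6 Mb) surrounded KIF2B, a kinesin of the mitotic spindle. That on chromosome 6 from 21800001 to 23200000 (1.4 Mb) ran into CDH8, a cadherin of neurons.

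Peak-free bins held few protein-coding genes. By gene midpoints there were 2.46 coding models per Mb in peak-free bins against 8.26 in all bins, a ratio of 0.297. For lncRNA models the densities were 1.06 and 2.30 per Mb, a ratio of 0.460. Pseudogenes went the other way, with 1.27 per Mb in peak-free bins and 0.924 in all bins, a ratio of 1.37. Of 2096 pseudogenes on chromosomes 1 to 18, 215 (10.3%) lay wholly inside peak-free runs, against 339 of 18722 coding models (1.81%) and 135 of 5206 lncRNA models (2.59%). Since a gene must fit into a run to be inside it, short models are favoured in these counts.

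What a bin held differed between peak-free bins and all bins. No gene model of any kind overlapped 343 of the 857 peak-free bins (40.0%), against 12.1% of all bins. A further 196 (22.9%) held only non-coding models or pseudogenes, against 11.5% of all bins. In 153 (17.9%) the whole bin lay inside 1 coding model, against 11.2%. The other 165 (19.3%) held part of a coding model or several of them, against 65.2% of all bins. Read the other way, 25.0% of bins with no gene model were peak-free and 2.23% of those with part of a coding model.

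**Figure D2:**
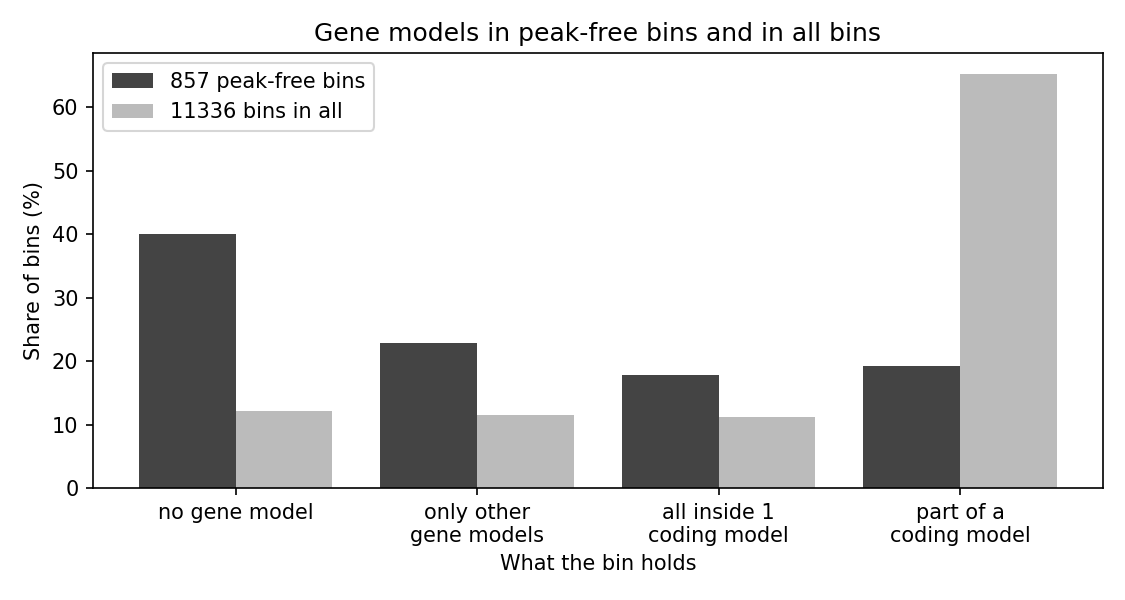
Share of bins (y axis, percent) by the RefSeq gene models they hold (x axis), for the 857 peak-free bins (dark) and all 11336 bins (light). Bins with no gene model make up 40.0% of the peak-free bins and 12.1% of all bins.

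Gene-dense bins without a peak formed a small group of their own. Bins with no coding midpoint were peak-free in 701 of 4453 cases (15.7%), those with 1 midpoint in 90 of 2939 (3.06%) and those with 2 in 8 of 1489 (0.537%). With 4 midpoints the share was 3.23% and with 9 it was 3.95%, from 16 and 3 bins. In total 58 peak-free bins held 3 or more coding midpoints, and these bins held 315 of the 421 midpoints found in peak-free bins. The fullest held 18.

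**Figure D3:**
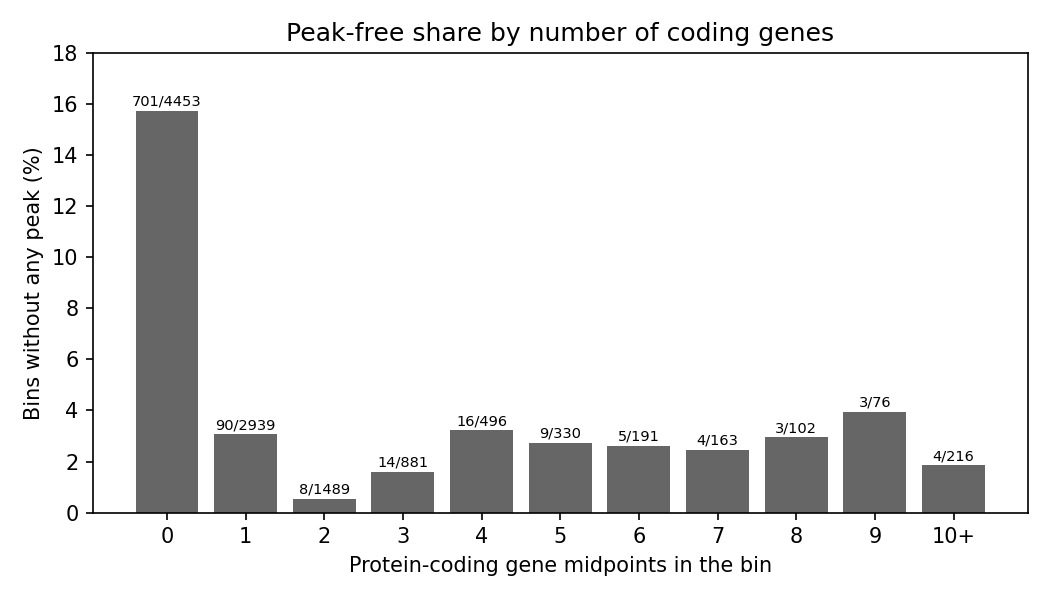
Share of 200-kb bins without any peak (y axis, percent) by the number of protein-coding gene midpoints in the bin (x axis); labels give peak-free bins over all bins of that class. The share falls from 15.7% at 0 to 0.537% at 2 midpoints and lies between 1.59% and 3.95% from 3 midpoints on.

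The coding genes inside were nearly all unnamed and short. Of the 339 coding models wholly inside, 314 (92.6%) carried a LOC symbol, against 16.1% of coding models on all 18 chromosomes. Named coding genes had a density of 0.554 per Mb in peak-free bins and 6.93 in all bins, a ratio of 0.0800, whereas LOC coding models had 1.90 and 1.33 per Mb, a ratio of 1.43. The median length of the LOC models inside was 960 bp, against 4261 bp for all LOC coding models. Of the 800 LOC coding models under 1200 bp, 216 (27.0%) lay inside peak-free runs, against 98 of the 2216 longer ones (4.42%). The gene table gives no protein family for them, so the kind of gene is not stated here.

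These unnamed models came in clusters. Only 52 of the 502 runs held a whole coding model, and the 10 richest runs held 202 of the 339 (59.6%). Outside chromosome 2 the densest were on chromosome 9, where the single bin from 5000001 to 5200000 held 17 LOC coding models with a median length of 2900 bp and the bin from 4400001 to 4600000 held 13. The run on chromosome 7 from 79200001 to 79600000 held 14, and the bin on chromosome 4 from 91600001 to 91800000 held 11. How reads that match several places were handled is not given in the sources used here. Mappability, sequence likeness between these models and assembly gaps were not analysed, so their part in the absence of peaks was not tested.

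Besides the LOC models, 25 named coding genes lay inside peak-free runs. Those not among the longest models or on the fixed lists are named here because they carry a symbol, after their values were seen. The longest model was HS3ST4 (chromosome 3, 20543833 to 21056108, 512276 bp). Next among the named were MSR1, a scavenger receptor of macrophages (chromosome 17, 3859903 to 3939612, 79710 bp), NLRP11 (chromosome 6, 60145050 to 60222936, 77887 bp), PCP4, a calmodulin-binding protein of Purkinje cells (chromosome 13, 203412479 to 203479216, 66738 bp), NLRP13 (62872 bp) and GCSAML (chromosome 2, 56690853 to 56744757, 53905 bp). The unnamed models LOC110257476, LOC106504254, LOC100518417 and LOC110257084 completed the 10 longest, at 117827, 86531, 68921 and 55493 bp.

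A group of innate immune genes on chromosome 6 stood in 3 separate peak-free runs. NLRP genes encode sensors related to those of the inflammasome, several of them known from oocytes and early embryos. The run from 60000001 to 60400000 held NLRP11, NLRP4, NLRP13 and NLRP8, and NLRP5 crossed its edge. The bin from 59000001 to 59200000 held NLRP7 together with KIR2DL1 and NCR1, receptors of natural killer cells, FCAR, the receptor for IgA, and PIGE-108A11.3. The bin from 56400001 to 56600000 held NLRP12, the homeobox gene DPRX and MIR371, the 1 microRNA of these runs. Unnamed LOC coding models lay there as well, 3, 1 and 7 of them in the same order of runs. Mappability was not analysed for these runs either, so its part in the absence of peaks was not tested. Peaks lay 15529 bp beyond the right edge of the first of these runs, 21799 bp beyond the left edge of the next and 10735 bp beyond the right edge of the last.

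Metabolic genes were inside as well. Of 36 matched genes of drug and steroid metabolism, 3 lay wholly in peak-free runs: CYP2C34 (chromosome 14, 106285170 to 106327579) and CYP2C32 (106437957 to 106473226), which are cytochrome P450 genes of 1 run, and UGT2B31 (chromosome 8, 66310697 to 66323755), a glucuronosyltransferase. They belong to multigene families, so the handling of reads that match several places bears on them too and was not tested. The other named genes included CYLC2, of the sperm head cytoskeleton, RPL10L, a testis copy of a ribosomal protein gene, TDRD15, a tudor domain gene, GPR139, a receptor of the brain, AADAT, an enzyme of kynurenine metabolism, and BTNL9, of the butyrophilin family.

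The remaining lists had no member wholly inside, where 1.81% of all coding models and 0.159% of named ones lay, so a count of 0 is near the background for lists of this size. This was so for 20 genes of liver and secretory products, 73 genes of neuronal adhesion and synapse organisation, 130 voltage-gated channel genes, 21 olfactory, vomeronasal and taste receptor genes, 58 interferon, defensin and cathelicidin genes, 35 keratin and keratin-associated genes, 57 zona, sperm and placenta genes, 57 developmental transcription factors, 22 matrix genes and 11 housekeeping genes. Lists were matched by gene symbol, and none of the 314 LOC coding models inside was matched to a list. The counts of 0 therefore do not cover these unnamed models, whatever their family. Having no peak at a gene end was far more common than lying in a peak-free bin. No library showed a gene-end peak at 17 of 20 liver and secretory genes, at 29 of 35 keratin genes and at 17 of the 21 olfactory, vomeronasal and taste receptor genes that carried a symbol, against 25.2% of all 18722 coding genes.

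Long genes of the nervous system held peak-free bins within their bodies. Of 703 coding models that spanned at least 1 whole bin, 93 (13.2%) held a peak-free one, and together they enclosed 153 peak-free bins. Their median length was 774 kb, against 404 kb for the 610 that held none. Of 58 models of 1 Mb or longer, 32 held a peak-free bin. Every library showed a gene-end peak at 57 of the 93 (61.3%), against 68.9% of all coding genes on these chromosomes and 74.8% of the 610. At a further 26 (28.0%) none did.

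Among 73 matched genes of neuronal adhesion and synapse organisation, 52 spanned a whole bin and 27 of these held a peak-free one (51.9%), beside 66 of the 651 other spanning models (10.1%). The neuronal models were longer, with medians of 995 and 413 kb. Restricted to models of 1 Mb or longer, the counts were 20 of 25 and 12 of 33. Inside such long models, 48 of 156 whole bins were peak-free in the neuronal genes and 24 of 185 in the others. Of 21 voltage-gated channel genes that spanned a whole bin, 3 held a peak-free one (KCNB2, KCND2 and KCNH8), a share near the 13.2% of all spanning models. Of 5 spanning developmental transcription factor genes, 1 did (DACH1).

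The 5 longest models with a peak-free bin were described by their peaks in each library. TENM2, a teneurin of synapses (chromosome 16, 55624273 to 59084150), enclosed 6 peak-free bins of 16 and held 21 and 22 peaks in control 1 and control 4, and 17 and 11 peaks in BRG1 1 and BRG1 4. TENM3, its relative (chromosome 15, 41818190 to 44401747), enclosed 1 of 12 and held 51, 49, 43 and 44 peaks in the same order. In both genes each BRG1 library lay below each control.

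RBFOX1, a splicing factor of neurons (chromosome 3, 34938703 to 37209772), enclosed 5 of 11 bins without a peak and held 15, 14, 12 and 14 peaks, so the groups met. PTPRD, a receptor phosphatase of synapses (chromosome 1, 211832409 to 214013013), enclosed 2 of 10 and held 12, 12, 7 and 8 peaks. CNTNAP2, a neurexin relative of axons (chromosome 9, 109740510 to 111781144), enclosed 1 of 9 and held 20, 19, 15 and 13. All 5 had a gene-end peak in every library except TENM2 in BRG1 1.

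**Figure D4:**
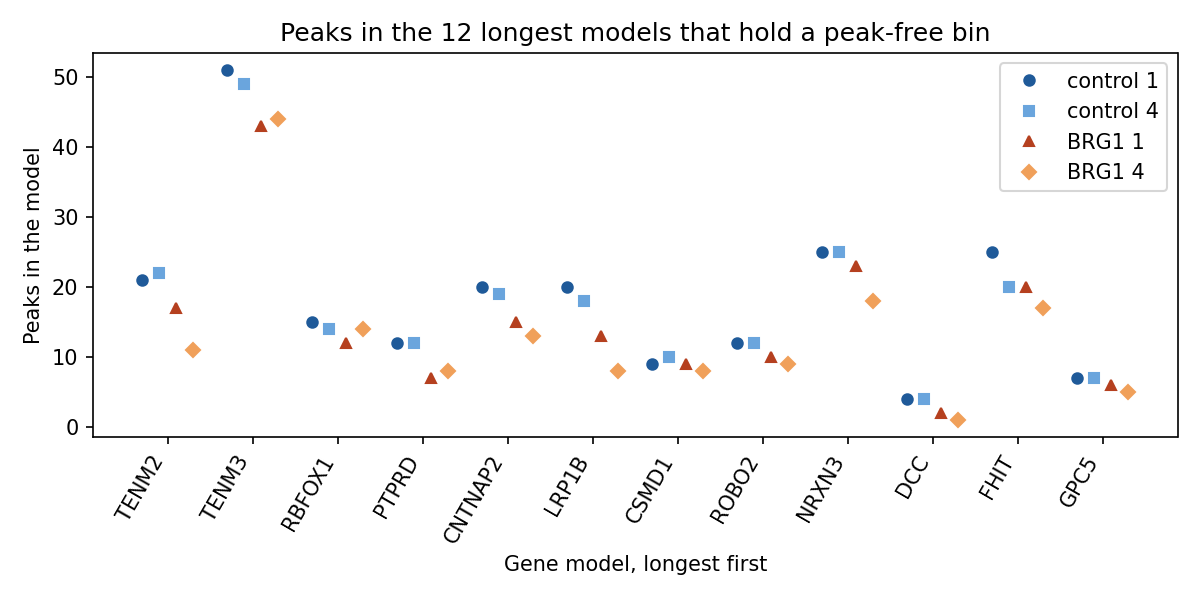
Number of peaks inside the 12 longest protein-coding models that hold a peak-free bin (x axis, longest first), with 1 symbol per library (y axis, peaks per model). TENM3 has the most peaks, 43 to 51, and DCC the fewest, 1 to 4.

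Several long genes, named after their values were seen, were nearly or wholly without peaks. TMEM132D (chromosome 14, 25144440 to 25919018, 774579 bp) held 0 peaks in every library, as did HS3ST4 and the shorter SHISA9, SHISA6, FAM135B and ASIC2. SHISA proteins are partners of glutamate receptors, and ASIC2 is an acid-sensing channel. Within 1 kb outside an end of ASIC2, however, every library had a peak. SORCS3, a sorting receptor of neurons, and UNC5D, a netrin receptor, each enclosed 3 peak-free bins of 3 and held 1 peak in control 1, 1 in BRG1 4 and 0 in the other libraries. DCC, another netrin receptor of 1568393 bp, held 4, 4, 2 and 1 peaks. PCDH15, a cadherin of hair cells, held 2 peaks in each control library and 0 in each BRG1 library.

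Some genes of similar length held a peak of at least 1 library in every whole bin. The longest coding models that spanned whole bins with none peak-free were MACROD2 (2051742 bp; 61, 55, 47 and 46 peaks), DLG2, a scaffold of synapses (1971427 bp; 74, 71, 65 and 61 peaks), and CTNNA3, a catenin (1779313 bp; 32, 31, 24 and 21 peaks). They were picked by length after the values were known, and not every such bin had a peak in every library: a bin of CTNNA3 (chromosome 14, 69600001 to 69800000) held 1 peak in BRG1 4 alone, and a bin of MACROD2 (chromosome 17, 24200001 to 24400000) held 2 peaks in each control library and 0 in each BRG1 library.

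Each library alone had more peak-free bins than the shared set. Bins without a peak numbered 996 (8.79%) in control 1 and 1018 (8.98%) in control 4, and 1201 (10.6%) and 1300 (11.5%) in BRG1 1 and BRG1 4. Both BRG1 libraries lay above both controls, with means of 1250.5 ± 70.0 and 1007 ± 15.6 (SD, n = 2 each, ratio 1.24, two-sided exact permutation p = 0.33). With 2 libraries against 2 the smallest p this test can give is 0.33, so it cannot decide whether the groups differ. The 857 shared peak-free bins enter every library's count alike, so the difference comes from the other bins. The BRG1 lists also held fewer peaks, with a ratio of 0.878. When each list was trimmed to its 90851 strongest peaks, the length of the shortest list, the difference of 243.5 bins fell to 51.5, in the same direction.

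The shared bins made up 86.0% of the peak-free bins of control 1, 84.2% of those of control 4, 71.4% of those of BRG1 1 and 65.9% of those of BRG1 4. On 16 of 18 chromosomes (88.9%) both BRG1 libraries had more peak-free bins than both controls, the exceptions being chromosomes 12 and 18. With lists of equal length this held on 4 chromosomes. On chromosome 1 the counts were 135 and 137 in the controls and 176 and 182 in BRG1 1 and BRG1 4. On chromosome 12 they were 16, 17, 18 and 17.

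Few bins with peaks were empty in 1 group alone. Control-only bins had a peak in both control libraries and in no BRG1 library, and BRG1-only bins the reverse. There were 89 control-only bins (0.785% of all bins) and 4 BRG1-only bins (0.0353%). The strongest peak of each control-only bin had a median percentile of 22.0 among the −log10 p-values of its own list, where 100 is the strongest, and no such bin held more than 2 peaks of 1 library. The 4 BRG1-only bins had highest percentiles between 19.4 and 24.0. One lay in MDGA2, an adhesion gene of neurons (chromosome 1, 177000001 to 177200000), and a pair on chromosome 3 overlapped no gene model. Of the control-only bins 39 (43.8%) touched a peak-free bin, as did 2 of the 4 BRG1-only bins (50%), against 8.45% of all bins with a peak. That base covers bins with any number of peaks, and bins with equally few peaks were not compared. With lists of equal length the counts were 34 control-only and 18 BRG1-only bins.

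The edge of the definition was thinly populated. A single peak in 1 library kept 166 bins from being peak-free, 77 of them by a peak of control 1, 63 of control 4, 9 of BRG1 1 and 17 of BRG1 4. The authors' fold had medians of 6.90 to 8.22 over the whole autosomal lists. Pooled over the 4 lists, these lone peaks had a median fold of 4.66 and a median percentile of 9.88. The weakest lay on chromosome 2 from 14265088 to 14265323 at percentile 0.0274. The strongest lay on chromosome 11 from 43199527 to 43200002, at percentile 70.9 and with a fold of 16.1, and reached the bin by its last 2 bp. Inside the definition, 13 of 1002 run edges had a peak within 1 kb, the nearest at 26 bp, and the median distance was 70475.5 bp.

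Peak number rose gradually away from the peak-free bins. The 885 bins that touched a run held at least 1 peak by construction, and their mean peak numbers were 3.05 and 3.01 in control 1 and control 4, and 2.57 and 2.33 in BRG1 1 and BRG1 4. The means over all bins were 9.09, 8.96, 8.16 and 7.70. At 5 bins away the means were 9.47, 9.35, 8.40 and 7.92, and beyond 10 bins they were 11.6, 11.4, 10.5 and 9.90. Peaks in the touching bins were slightly weaker, with median percentiles of 40.6 to 42.0 in their own lists against 50.1 to 50.2 for all autosomal peaks.

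**Figure D5:**
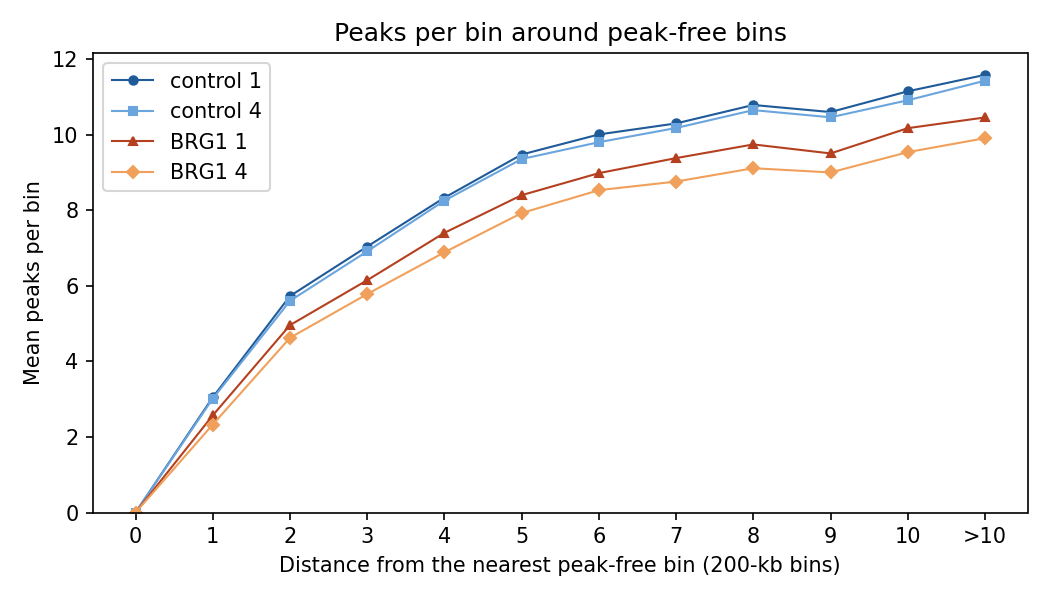
Mean number of peaks per 200-kb bin (y axis) against the distance to the nearest peak-free bin, counted in bins (x axis), with 1 line per library; the value at 0 is fixed by the choice of bins. All 4 lines rise from 2.33 to 3.05 at 1 bin to 9.90 to 11.6 beyond 10 bins, and both BRG1 lines lie below both control lines.

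Beside peak-free runs the BRG1 libraries also had fewer peaks than the controls. This is a description, with no test, since the same peak calls chose the touching bins, and lone peaks that kept a bin from being peak-free came mostly from control libraries (77 and 63, against 9 and 17). The BRG1 libraries averaged 2.45 ± 0.171 peaks per touching bin and the controls 3.03 ± 0.0248 (ratio 0.808, SD over n = 2 each), against a ratio of 0.879 over all bins. Each library's mean in touching bins was 33.5% and 33.6% of its mean over all bins in control 1 and control 4, and 31.5% and 30.2% in BRG1 1 and BRG1 4. The groups did not overlap, with 30.9 ± 0.889% and 33.6 ± 0.0611% (SD, n = 2 each). The ratio of BRG1 to control means was 0.846 at 2 bins, 0.867 at 5 bins and 0.885 beyond 10 bins. With lists of equal length the ratio beside runs was 0.961, and the gap of 2.71 percentage points became 1.38.

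The long genes with peak-free bins, chosen by the same calls, followed the same order. The 93 models together held 741 and 723 peaks in control 1 and control 4 and 602 and 545 peaks in BRG1 1 and BRG1 4, a ratio of 0.783 between the group means of 573.5 ± 40.3 and 732 ± 12.7 (SD, n = 2 each). As a share of each library's autosomal peaks this was 0.721% and 0.713% in the controls and 0.652% and 0.626% in the BRG1 libraries. In 35 of the 93 models (37.6%) both BRG1 libraries had fewer peaks than both controls, against 47.5% of all 703 spanning models, and in 2 (2.15%) they had more, against 1.42%. With lists of equal length, where 104 models held a peak-free bin, the ratio was 0.947. The part of list length and depth in these differences was not tested beyond that alternative.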

How the data were processed

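The authors deposited 1 narrowPeak list per library, with peaks called in each library alone. Tools named, per the submitters' processing notes, were MACS2, Bowtie, BWA, SAMtools and FastQC, without version or role, on build Sscrofa11.1. Each deposited peak carries the authors' own score, fold (a ratio of pileup over background), −log10 p-value and −log10 q-value. Peaks were ranked inside 1 list alone. The −log10 q cut-off of 5 was the same for every list. Folds of lone peaks were pooled over lists, as were percentiles of lone peaks and of control-only and BRG1-only bins. For Tn5 shift, duplicates, multiply mapping reads and caller settings, the steps taken are not given in the sources used.

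Bins, runs and gene counts were computed in Python 3.11.15 with pandas 2.3.3 and checked on simulated peaks. Percentiles are ranks of −log10 p within a list. Gene positions came from the RefSeq table of the same build, which has no strand, exons or sequence, so exonic, intronic and UTR positions were not assigned. The planned promoter CpG comparison was not run, and no sequence is shown, because no genome sequence was used here. Group means were compared by exact permutation over libraries. Members, gene lists and tests were chosen with earlier results of these data known. Named were the 10 longest runs with their coding genes, the 10 longest coding models inside, list genes inside, the 5 longest models with a peak-free bin that also have peaks, and further genes marked in the text as named after their values were seen. Some items of the lists are not reported here.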

Additional observations from a re-analysis of the deposited data

How the results depend on the processing

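Bin width set the counts. With 100-kb bins there were 3318 peak-free bins (14.6%), 722 coding models inside, 324 models holding a peak-free bin, and 281 control-only and 17 BRG1-only bins, with a gene density ratio of 0.356 and a longest run of 2.8 Mb. With 500-kb bins the values were, in the same order, 90 (1.98%), 115, 4, 19, 1, 0.345 and 2.5 Mb. Bins that started 100 kb later gave a longest run of 2.8 Mb and a density ratio of 0.370. They held 445 coding models inside, against 339 with the main bins, so the set of genes inside depends on the bin origin. Counting genes by any overlap gave a density ratio of 0.330, and named genes alone 0.0800, with 25 inside (an alternative chosen after seeing the data). A −log10 q of at least 5 gave 8 BRG1-only bins. With 90851 top peaks in every list there were 983 peak-free bins, 34 control-only and 18 BRG1-only bins, and 4 chromosomes with more peak-free bins in both BRG1 libraries.

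Leaving out each library in turn gave 866 to 937 peak-free bins, a difference of 194 to 293 bins between the groups, 145 to 251 control-only and 13 to 21 BRG1-only bins, since only 3 libraries then enter the rule (each of the 4 omissions moved both counts by over 1.5 times, most without BRG1 1). With the same 4 omissions the ratio beside runs was 0.768 to 0.848. With the replicate number as a block the difference in peak-free bins was 243.5 (exact sign-flip p = 0.5, the smallest possible) and the ratio beside runs 0.807, without a test. The numbers were not shown to pair the libraries, since libraries of the same number deviated with a correlation of −0.00797 over bins. No value turned its direction under the alternatives run. The promoter CpG comparison was not run. Peak-free means that nothing was called at a read depth the files do not give.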
